A study of Mus musculus with 6 samples.

Results

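The Elavl and Celf genes encode RNA-binding proteins, and RNA sequencing measured their messages in primary ventral midbrain cultures of the mouse, with and without knockdown of circRmst. The members were chosen by name, as the rows of the count tables equal to Elavl1, Elavl2, Elavl3, Elavl4 and Celf1 to Celf6, which gives 10 genes of 42396 in the tables. Of these 10 genes, 9 had counts and all 9 passed the filter on low counts, while Celf1 was listed at 0 counts in every library and is described from the deposited FPKM values (fragment counts scaled by transcript length and library size) alone. All 6 libraries came from wild-type (WT) embryos at embryonic day 14, plated at 150000 cells per well and infected on the day of plating with lentivirus at a multiplicity of infection (MOI) of 5. The 3 control libraries received pll3.7-Scr2, the scramble control, and the 3 knockdown libraries received pll3.7-shRmstI, a hairpin against this circular RNA of the Rmst gene. Cells were harvested at 3 days in vitro from 2 to 3 wells per condition, and 3 independent cultures were sequenced, per the labels. A single hairpin was used, so its effects on other RNAs cannot be told apart from those of circRmst. Levels of circRmst were not analysed here, so these values hold no check of the knockdown.

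Elavl proteins, also called Hu proteins, bind U-rich and AU-rich stretches of messages and are known for stabilising them, raising their translation and directing splicing and choice of poly(A) site. Elavl1 (HuR) is made in nearly all cells, whereas Elavl2 (HuB), Elavl3 (HuC) and Elavl4 (HuD) are made mainly in neurons, where they are early markers of neuronal differentiation. Celf proteins bind GU-rich stretches and act on alternative splicing, message decay and translation. Celf1 and Celf2 are broadly expressed and form one branch of the family, while Celf3, Celf4, Celf5 and Celf6 form a second branch found mostly in the nervous system. Proteins of both families carry 3 RNA recognition motifs.

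Members of a family resemble each other, so their coding sequences are shown where they are most alike, as a check on whether reads could be shared between them. For the Elavl genes, the search took the 60 coding bases of Elavl1, in whole codons, with the most matches summed over the other genes. These bases and their counterparts encode part of the third RNA recognition motif. They are printed 5′ to 3′ on the coding strand (GENCODE M21, GRCm38), with capitals at the positions where the 4 genes are not all identical.
Elavl1, chr8:4289696-4289755, minus strand: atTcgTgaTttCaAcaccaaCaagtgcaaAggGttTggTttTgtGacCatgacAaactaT
Elavl2, chr4:91253339-91253398, minus strand: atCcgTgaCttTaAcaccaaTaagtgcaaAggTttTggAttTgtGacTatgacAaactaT
Elavl3, chr9:22018602-22018661, minus strand: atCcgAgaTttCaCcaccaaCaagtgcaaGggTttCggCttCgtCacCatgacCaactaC
Elavl4, chr4:110206431-110206490, minus strand: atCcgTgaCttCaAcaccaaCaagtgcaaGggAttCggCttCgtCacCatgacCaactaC
In this stretch 45 of 60 positions were shared by all 4 genes.

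The same search in the first Celf branch found the following 60 coding bases, within 1 exon of each gene, with capitals where the 2 genes differ.
Celf1, chr2:91012728-91012787, plus strand: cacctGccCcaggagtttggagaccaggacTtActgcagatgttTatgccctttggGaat
Celf2, chr2:6549887-6549946, minus strand: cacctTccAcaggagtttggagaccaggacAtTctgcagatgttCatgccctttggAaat
In the second branch, where no sequence of Celf4 is shown, the search started from Celf3. The stretches found in Celf3, Celf5 and Celf6 had 46 of 60 positions in common and lay across an exon junction in each gene. They read as follows, with capitals where the 3 genes are not all identical.
Celf3, coding bases 358 to 417, plus strand: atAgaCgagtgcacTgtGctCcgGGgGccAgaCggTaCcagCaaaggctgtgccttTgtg
Celf5, coding bases 364 to 423, minus strand: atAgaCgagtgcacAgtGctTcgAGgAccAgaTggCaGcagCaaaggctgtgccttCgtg
Celf6, coding bases 478 to 537, plus strand: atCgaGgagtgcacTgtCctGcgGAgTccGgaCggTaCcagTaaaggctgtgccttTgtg
With the intron inside each of them, these stretches run over chr3:94485356-94485510 (Celf3), chr10:81469510-81470674 (Celf5) and chr9:59602660-59602813 (Celf6) in GRCm38.
Over whole aligned coding sequences, the 6 Elavl pairs shared between 71.0% and 77.9% of bases, with Elavl3 and Elavl4 the most alike. The 15 Celf pairs shared between 60.7% and 75.0%, with Celf3 and Celf4 the most alike, and Celf1 and Celf2 shared 74.4% with each other. The longest run of identical bases between any transcripts of 2 genes was 29 for the Elavl genes and 43 for the Celf genes (Celf4 and Celf6), against reads of 150 bases. No pair of paralogues in either family had an identical run as long as a read.

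The libraries held between 27248934 and 43646521 counts, with the fewest in control replicate 3. Every neuron marker of a list of 10, such as the tubulin gene Tubb3, had counts, and so did all 13 markers of dopamine neurons. Their summed level for neurons was 5745 to 6041 CPM (counts relative to library size, scaled between libraries by TMM) in control libraries and 5156 to 6407 CPM in knockdown libraries. For dopamine neurons it was 718 to 819 CPM and 707 to 821 CPM, in the same order. The labels name the cells dopamine neurons, but markers of other cells were present too, at 1583 to 2052 CPM in the control for 9 markers of radial glia and progenitors and at 682 to 781 CPM for 7 markers of astrocytes. The 8 markers of the oligodendrocyte lineage summed to 299 to 469 CPM in control libraries and to 289 to 371 CPM in knockdown libraries, and microglial markers were near 0, at 19.5 to 23.9 CPM in all. In the knockdown, radial glia markers summed to 1681 to 1931 CPM and astrocyte markers to 664 to 896 CPM. No marker of these lists was called, and 0 of all 17439 genes tested were. All 8 oligodendrocyte markers lay below the control, 2 of them at an unadjusted p under 0.05 in edgeR's test. Of 6 microglial markers tested, 2 had such a p (1.10% of all genes). In 2 the knockdown lay below the control without overlap (2.92% of all genes). No neuron, dopamine neuron, radial glia or astrocyte marker had such a p. With markers of several cell types present, the cultures were mixed. In such bulk samples fewer cells of a type and less RNA per cell cannot be told apart.

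All 10 genes were expressed. Elavl2, Elavl3 and Elavl4 stood above Elavl1. With Celf1 taken by its first entry, Celf4, Celf5 and Celf3 led the Celf genes, while Celf6 stood below Celf2. With both entries summed, Celf1 was at 33.6 to 53.2 FPKM, above Celf5. Per transcript length, Celf4, which encodes a neuronal protein that binds many synaptic messages, stood highest at 47.1 to 63.1 FPKM over the 6 libraries, with a mean of 56.7. Elavl3 followed at 44.4 to 60.4 FPKM (mean 53.6), and it lay below Celf4 in 5 of 6 libraries, so the ranges of these 2 genes overlapped. Elavl2 came next at 30.6 to 35.6 FPKM, clear of the range of Elavl3. Celf5 was at 23.8 to 33.0 FPKM, Elavl4 at 21.3 to 29.5, Celf3 at 17.7 to 21.9, Elavl1 at 15.9 to 19.3 and Celf2 at 13.3 to 19.8. In this stretch of the order each gene's range overlapped that of its neighbour. Within libraries, however, Celf5 was above Elavl4, Elavl4 above Celf3 and Celf3 above Elavl1 in all 6. Elavl2 was above Celf5 in 5 libraries, and Elavl1 was above Celf2 in 4. The first entry of Celf1, at 11.2 to 13.3 FPKM, and Celf6, at up to 12.9 FPKM, were the lowest and could not be ranked against each other, since each was the higher one in 3 libraries. By their means the 10 genes lay between the 69.2nd percentile (Celf6) and the 94.1st percentile (Celf4) of entries with at least 1 FPKM. These levels are the authors' FPKM, which rest on transcript models of different length, and the place of Celf1 in the order depends on a second entry described further on.

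**Figure D1:**
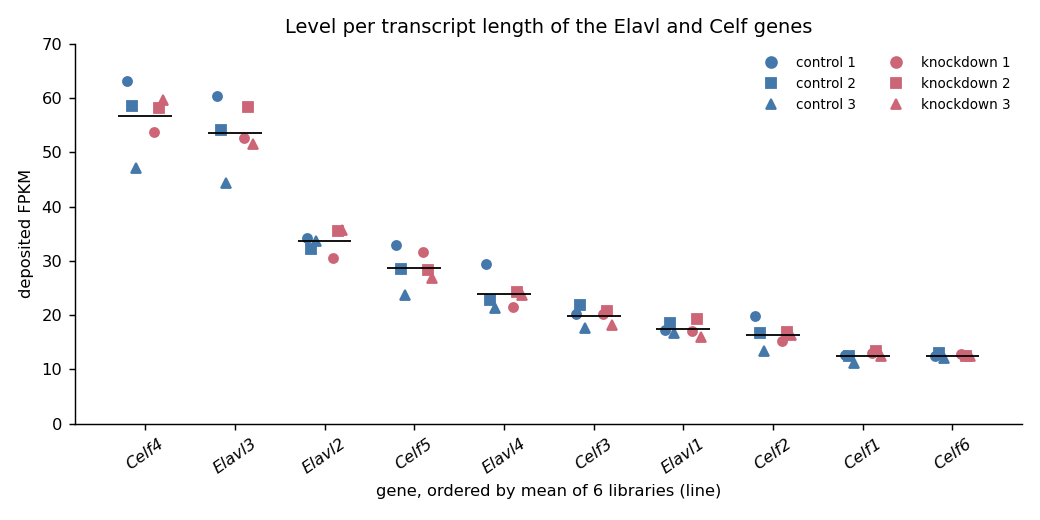
Deposited FPKM (vertical axis) of each of the 10 genes (horizontal axis) in the 3 control libraries (blue) and the 3 knockdown libraries (red), with symbols for the replicate number and a line at the mean of 6 libraries. Celf4 and Elavl3 stand at 44.4 FPKM or more in every library, and the control and knockdown points of each gene overlap.

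Elavl messages were mainly those of the neuronal members. Elavl3 made up 41.6% of the FPKM summed over the family (38.3% to 43.3% over libraries), Elavl2 made up 26.3% (24.2% to 29.0%), Elavl4 18.5% (17.7% to 20.8%) and the ubiquitous Elavl1 13.6% (12.2% to 14.6%). The 3 neuronal members summed to 7.17, 5.87 and 5.94 times the level of Elavl1 in control replicates 1, 2 and 3, and to 6.15, 6.13 and 6.98 times in knockdown replicates 1, 2 and 3. These ratios overlapped between the groups. The Celf shares that follow leave out the second entry of Celf1, with which Celf1 summed to 33.6 to 53.2 FPKM. Within the Celf family, counting the first entry of Celf1 alone, Celf4 took 38.6% (36.6% to 40.8%), Celf5 19.5% (18.4% to 21.6%), Celf3 13.6% (12.5% to 14.5%), Celf2 11.1% (10.4% to 12.3%), Celf6 8.58% (7.71% to 9.62%) and Celf1 8.57% (7.84% to 8.97%). Between the group means the share of Elavl3 went from 41.1% ± 2.48 to 42.1% ± 1.30 and that of Elavl4 from 19.0% ± 1.61 to 18.0% ± 0.578 (SD, n = 3 each), differences smaller than the spread within the control.

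The question of the series is whether lowering circRmst changes gene expression in these cells, and no difference between the groups passed the test for any of the 9 counted Elavl and Celf genes. In edgeR's quasi-likelihood test 0 of the 9 were called as higher and 0 as lower at an adjusted p under 0.05, and so were 0 of all 17439 genes tested (0.00% in either direction). At an unadjusted p under 0.05 there were 0 of the 9, against 1.10% of all genes tested, and DESeq2 and limma voom likewise had 0. In limma on log2 FPKM 0 of the 10 members, with Celf1 by its first entry, had an unadjusted p under 0.05, against 4.29% of all entries tested. The median log2 fold change, knockdown against control, was -0.0089 over the 9 genes and -0.0060 over all genes tested, with 5 of the 9 below 0 and 51.9% of all genes below 0. The groups overlapped in each of the 9 genes, where 2.28% of all genes were apart and higher in the knockdown and 2.92% apart and lower. The 95% intervals of the change reached from -22.5% (the lower end for Elavl4) to 22.2% (the upper end for Celf2), and larger changes lay outside the intervals of all 9 genes. Which libraries came from 1 culture is not in the labels, so the p-values measure the spread between these libraries.

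Elavl1, the member found in nearly all cells, was at 191, 207 and 188 CPM in control replicates 1, 2 and 3 and at 186, 205 and 181 CPM in knockdown replicates 1, 2 and 3. Replicate 2 was the highest library of each group, and the groups overlapped. The control mean was 195 ± 10.2 CPM and the knockdown mean 191 ± 12.4 CPM (SD, n = 3 each), and the log2 fold change was -0.033 ± 0.094 (SE), with a 95% interval from -0.24 to 0.17 and an adjusted p of 1.00. Elavl1 lies on chromosome 8 from 4284781 to 4325140 (GRCm38).

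Among the neuronal Elavl genes, Elavl2 was at 320, 291 and 313 CPM in control replicates 1 to 3 and at 287, 284 and 355 CPM in knockdown replicates 1 to 3. The knockdown libraries thus held both the lowest and the highest value, and the log2 fold change was 0.0042 ± 0.11 (SE). Elavl2 (chromosome 4 from 91211533 to 91400108) shares this chromosome with Elavl4 (110203737 to 110351939). Elavl3, the most abundant Elavl message and a common marker of young neurons, was at 538, 494 and 400 CPM in the control and at 463, 503 and 475 CPM in the knockdown. All 3 knockdown libraries fell inside the span of the control, which was wide, and the means were 477 ± 70.5 and 480.4 ± 20.5 CPM (SD, n = 3 each). Its log2 fold change was 0.0089 ± 0.12 (SE), with a 95% interval from -0.25 to 0.27, and it lies on chromosome 9 from 22015005 to 22052146. Elavl4, whose protein HuD is known for stabilising Gap43 messages in growing axons, was at 216, 169.8 and 159 CPM in the control and at 158, 171 and 180.5 CPM in the knockdown. Control replicate 1 stood above the other 5 libraries. Of the 9 genes Elavl4 had the smallest unadjusted p, 0.438 in edgeR's test, with a log2 fold change of -0.099 ± 0.12 (SE), a 95% interval from -0.37 to 0.17 and an adjusted p of 1.00. Without control replicate 1 the log2 fold change of Elavl4 was 0.049.

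In the Celf family, Celf2, of the broadly expressed branch, was at 341, 288 and 234 CPM in control replicates 1 to 3 and at 273, 265 and 319 CPM in knockdown replicates 1 to 3. As for Elavl3, the knockdown libraries lay within the span of the control. The log2 fold change was -0.013 ± 0.14 (SE), with the widest interval of the 9 genes, from -0.31 to 0.29. Celf2 spans chromosome 2 from 6539694 to 7396341. Celf4, the most abundant Celf message, from a gene on chromosome 18, was at 445, 411 and 331 CPM in the control and at 370.0, 385 and 424 CPM in the knockdown. Its means were 395 ± 58.6 and 393 ± 28.0 CPM (SD, n = 3 each), and the log2 fold change was -0.0089 ± 0.12 (SE), with a 95% interval from -0.28 to 0.26. Celf5, of the neuronal branch and on chromosome 10 from 81459227 to 81482730, was at 257, 227 and 185 CPM in the control and at 241, 218 and 213 CPM in the knockdown, a log2 fold change of 0.0048 ± 0.12 (SE). In Celf2, Celf4 and Celf5 alike, control replicate 1 was the highest and control replicate 3 the lowest of the 6 libraries.

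The remaining counted Celf genes varied less. Celf3, a neuronal splicing regulator on chromosome 3 from 94478285 to 94496786, was at 131, 136 and 116 CPM in the control and at 127, 121 and 122 CPM in the knockdown. Its log2 fold change was -0.050 ± 0.094 (SE), with an interval from -0.26 to 0.16. Other annotated genes overlap some members. GENCODE M21 places Ccl25 over Elavl1, Gm49318 over Elavl3, Gm16105 over Celf5 and 7 genes over Celf2, whose levels are not given here. The overlaps that follow are by RefSeq gene positions. Riiad1 overlaps Celf3, at a mean of 5.32 CPM against 126 CPM. Celf4 has 3 such genes, of which Gm32896 was the highest at 12.7 CPM against 394 CPM, and Celf2 has 5031426D15Rik at 0.782 CPM against 287 CPM. Mir6402, within Elavl2, was at 0 CPM, and whether the counting used strand is not stated in the labels or headers. Celf6, on chromosome 9 from 59578287 to 59609033, had the lowest level of the 9 genes, at 69.3, 73.4 and 66.3 CPM in the control and at 72.3, 67.5 and 73.3 CPM in the knockdown. The log2 fold change of Celf6 was 0.028 ± 0.094 (SE), with the narrowest interval of the 9 genes, from -0.18 to 0.23. In both Celf3 and Celf6 the groups overlapped, and the 6 libraries spanned 0.22 and 0.15 log2 units.

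**Figure D2:**
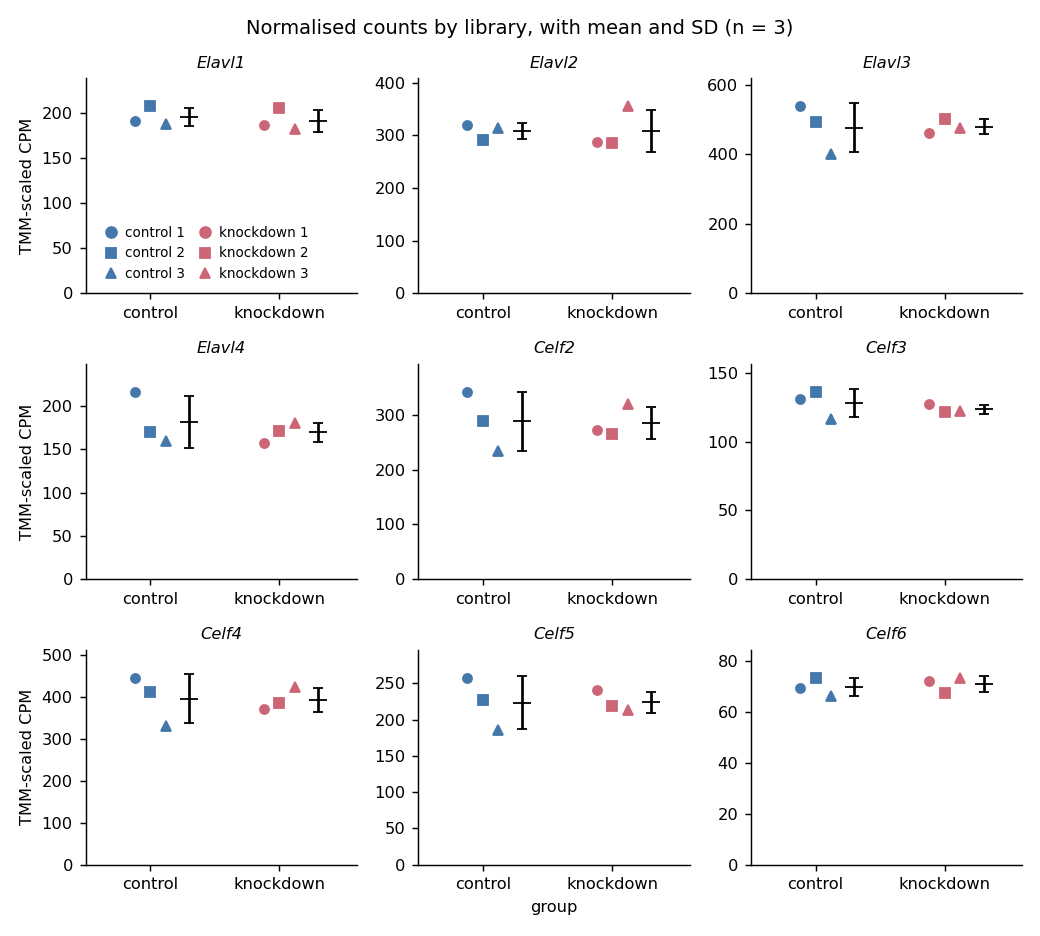
TMM-scaled CPM (vertical axis, from 0) of the 9 counted genes in control (blue) and knockdown (red) libraries, 1 panel per gene, with symbols for the replicate number and the mean ± SD of 3 libraries beside them. The groups overlap in each panel, and the control spread is widest for genes such as Elavl3, at 400 to 538 CPM.

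**Figure D3:**
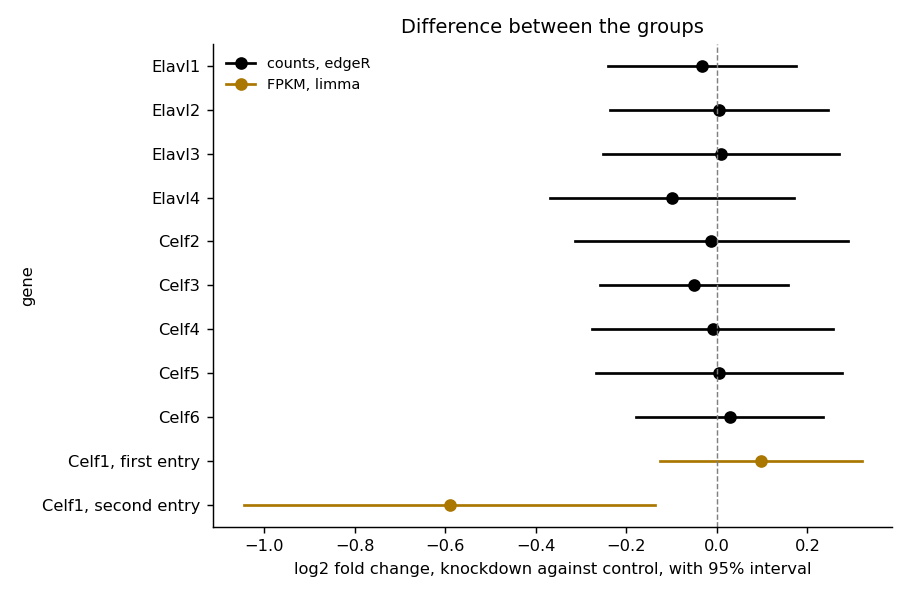
Log2 fold change of the knockdown against the control (horizontal axis) with its 95% interval for the 9 counted genes (black, edgeR on counts) and for both entries of Celf1 (brown, limma on log2 FPKM). The intervals of the 9 counted genes and of the first Celf1 entry include 0, and that of the second Celf1 entry runs from -1.04 to -0.14.

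Values also varied between single libraries, within the groups as well as between them. Over the 6 libraries the log2 CPM of the 9 genes ranged by 0.15 (Celf6) to 0.54 (Celf2), with a median range of 0.43, against a median of 0.35 over 10270 genes whose mean reached 10 CPM. Control replicate 3 was the lowest library for 6 of the 9 genes, Celf2, Celf3, Celf4, Celf5, Celf6 and Elavl3, and 16.3% of the 10270 genes had their lowest value there. Control replicate 1 was the highest library for 5 of the 9 genes, Celf2, Celf4, Celf5, Elavl3 and Elavl4, as it was for 20.3% of the 10270 genes. Both held for 4 genes, Celf2, Celf4, Celf5 and Elavl3, and for 6.17% of the 10270 genes. Elavl2 departed from this order, with its highest value in knockdown replicate 3 at 0.21 log2 units above its mean, while in control replicate 3 it was 0.026 above. Among related lists the summed level was also highest in control replicate 1 and lowest in control replicate 3 for the factors of RNA stability and decay (2324 and 2042 CPM), for other neuronal RNA-binding and splicing families (3990 and 3437 CPM) and for messages bound by neuronal Elavl proteins (3586 and 3040 CPM). It was not so for messages bound by Celf proteins. Since the lists named before shared it, the order of the libraries was not particular to the Elavl and Celf genes. The summed neuron markers were at 5785 CPM in control replicate 1 and 5745 CPM in control replicate 3, while Tubb3 alone was at 1155 and 1572 CPM. The dopamine neuron markers summed to 718 CPM in control replicate 1 and to 819 CPM in control replicate 3. Control replicate 1 had the highest sum of 8 markers of dividing cells, 339 CPM against 196 to 249 CPM in the other 5 libraries, and control replicate 3 had the fewest counts. The part of dividing cells, of neuron content and of depth in these differences was not tested.

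**Figure D4:**
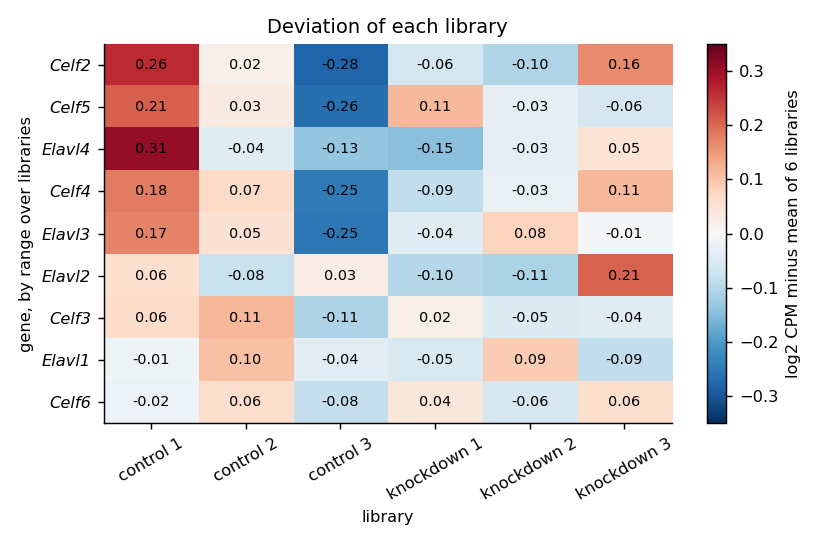
Log2 CPM of each of the 9 counted genes (rows, by their range) in each library (columns), as the difference from the gene's mean over the 6 libraries, from blue (lower) to red (higher). Control replicate 1 is red for the upper 5 genes (0.17 to 0.31), and control replicate 3 is blue for the same genes (-0.28 to -0.13).

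For the 3 genes with the largest range over libraries, the genes with the most similar course were sought among 10269 others, by the root mean square difference of log2 CPM after removing each gene's mean over the 6 libraries. Nearest to Celf2 were Zdhhc20, which encodes a palmitoyltransferase, at 0.037, and Pde5a, which encodes a cyclic GMP phosphodiesterase, at 0.039, where the median gene was at 0.22. Celf5 was matched most closely by Chd3, which encodes a chromatin remodeller, at 0.029, and by Gid4, which encodes a subunit of a ubiquitin ligase, at 0.036. Nearest to Elavl4 were Eif4g3, which encodes a translation initiation factor, at 0.021, and the centrosome gene Cep170, at 0.036. No Elavl or Celf gene was among these nearest genes.

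Celf1, the founding member of its family, known for its link to myotonic dystrophy, has 2 entries in the deposited tables. The first entry lies on chromosome 2 from 90940259 to 91019497, and the second on a separate scaffold from 86451 to 165551. Both entries had 0 counts in all 6 libraries. In the FPKM tables the first entry stood at 12.6, 12.5 and 11.2 FPKM in control replicates 1 to 3 and at 13.1, 13.3 and 12.5 FPKM in knockdown replicates 1 to 3. The groups overlapped at this entry, with a log2 fold change of 0.097 ± 0.091 (SE) and an adjusted p of 1.00 in limma on log2(FPKM + 0.1). The same libraries thus listed Celf1 at 0 counts and at 11.2 FPKM or more. Of 570 genes with a second entry and a mean of at least 1 FPKM at the first, 187 also had 0 counts at both entries in all 6 libraries, against 254 of 12205 genes without a second entry. Of the 8 genes with a second entry on this scaffold, 6 had 0 counts at both entries, Celf1 and Ndufs3, which encodes a subunit of respiratory complex I, among them. The exceptions were Mtch2, with up to 1540 counts at its first entry, and Ptpmt1, with up to 118 at its second.

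The second entry of Celf1 gave other values than the first. It stood at 35.3, 35.5 and 41.9 FPKM in control replicates 1 to 3 and at 20.5, 32.2 and 23.2 FPKM in knockdown replicates 1 to 3, so each knockdown library lay below each control library. The control mean was 37.6 ± 3.77 FPKM and the knockdown mean 25.3 ± 6.09 FPKM (SD, n = 3 each). This is a log2 fold change of -0.59 ± 0.19 (SE), on the log2(FPKM + 0.1) scale, with an unadjusted p of 0.0190 in limma that did not pass the adjustment over all entries (adjusted p = 1.00). Over all 14688 entries tested, 4.30% were apart and lower in the knockdown and 0.00% had an adjusted p under 0.05. Among second entries as such the share was larger, with 157 of 578 (27.2%) apart and lower, and 91.0% below the control. Their median log2 difference was -0.43, against -0.25 for the first entries of the same genes and -0.00052 for all other entries. The FPKM of all entries summed to 738354, 552427 and 981961 in control replicates 1 to 3. In knockdown replicates 1 to 3 the totals were 409983, 683826 and 636000. Control replicate 3 had the highest total and knockdown replicate 1 the lowest, as at the second Celf1 entry, but control replicate 2 was below knockdown replicates 2 and 3. The part of these totals was not tested. With both entries summed, Celf1 was at 47.9, 48.0 and 53.2 FPKM in the control and at 33.6, 45.5 and 35.7 FPKM in the knockdown, with no overlap. The log2 fold change of the sum was -0.39 ± 0.14 (SE, unadjusted p = 0.0311 and adjusted p = 1.00 in limma). The sum of both entries was likewise below the control in 95.5% of the 578 genes, and apart and lower in 26.6% of them. By its summed values Celf1 would stand above Elavl2 in the order of levels rather than near the end. The second entry took 73.6% to 78.9% of the sum in the control libraries and 61.1% to 70.7% in the knockdown libraries, with no overlap. The level at either entry alone may depend on how fragments were divided between the entries, which is not known. The part of this division in the difference was not tested.

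**Figure D5:**
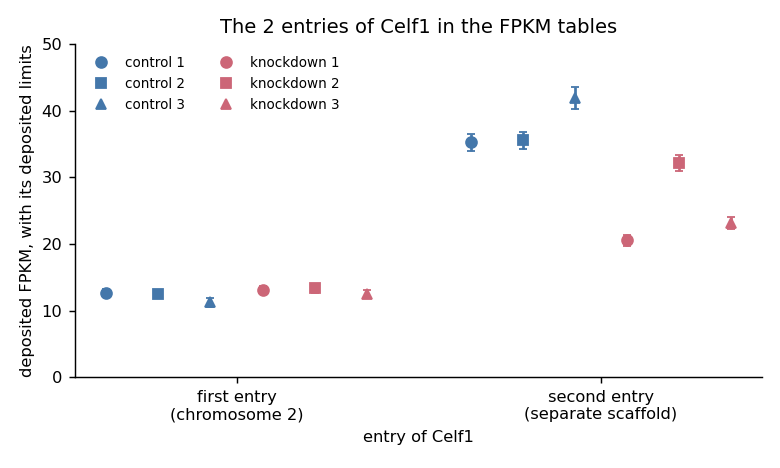
Deposited FPKM (vertical axis) of the first and second entry of Celf1 in each control (blue) and knockdown (red) library, with the limits deposited with each value as bars. The first entry stays between 11.2 and 13.3 FPKM, while the second lies at 35.3 to 41.9 FPKM in control libraries and at 20.5 to 32.2 FPKM in knockdown libraries.

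Other regulators of message stability and splicing, and messages that Elavl and Celf proteins are known to bind, had no called gene either. Over all 17439 genes tested, 0 were called and 51.9% lay below the control. Of 19 tested factors of RNA stability and decay, 0 were called, 11 lay above the control and 8 below, and the median log2 fold change was 0.014. In this list the 3 genes with the smallest p were the Igf2bp genes, whose proteins bind and stabilise messages in embryonic tissue. Igf2bp1 was at 15.1, 14.9 and 14.8 CPM in the control and at 13.4, 12.1 and 11.7 CPM in the knockdown, with no overlap between the groups. It was 1 of 19 genes apart and lower, where 2.92% of all genes tested were. Its log2 fold change was -0.26 ± 0.12 (SE, unadjusted p = 0.0514 and adjusted p = 1.00 in edgeR's test), and Igf2bp2 had -0.19 ± 0.12 and Igf2bp3 -0.21 ± 0.16.

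Of 26 genes of other neuronal RNA-binding and splicing families, 0 were called. In this list 7 lay above and 19 below the control, where 51.9% of all genes tested lay below. The median log2 fold change was -0.043. Ptbp3, a relative of the splicing repressor Ptbp1, was at 49.3, 42.1 and 41.9 CPM in the control and at 40.5, 36.2 and 40.4 CPM in the knockdown. It was the only gene of the 26 whose groups did not overlap, against 2.92% of all genes tested that were apart and lower, and its log2 fold change was -0.19 ± 0.11 (SE). Khdrbs3, which encodes a splicing factor, had -0.17 ± 0.12, and the muscleblind gene Mbnl1 had -0.16 ± 0.12. Among 16 messages bound by neuronal Elavl proteins 0 were called, 7 lay above and 9 below, with a median of -0.054. There Myc, a proto-oncogene with an AU-rich message, was at 28.9, 24.5 and 22.8 CPM in the control and at 21.5, 23.4 and 18.5 CPM in the knockdown, a log2 fold change of -0.27 ± 0.13 (SE). Cdkn1a, which encodes the cell cycle inhibitor p21, was at 55.1, 63.1 and 63.2 CPM in the control and at 73.2, 74.9 and 62.2 CPM in the knockdown, a log2 fold change of 0.21 ± 0.11. The groups overlapped in both genes. Among 12 messages bound by Celf proteins 0 were called, 5 lay above and 7 below, with a median of -0.016. The immediate early gene Fos, which is in both lists of bound messages, had -0.21 ± 0.16, the transcription factor gene Mef2a had -0.090 ± 0.11 and the tau gene Mapt had 0.086 ± 0.11.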

How the data were processed

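Counts of 6 libraries were used as deposited by the authors, as whole numbers per gene with 1 table per library. The FPKM values were deposited by the authors in the layout of Cufflinks gene tables, per the file headers, and the submitters' processing notes name Cufflinks 2.2.1 and the build GRCm38 (mm10). Reads were aligned and counted with tools and a strand setting not given in the sources used here. For counts the main fit was the quasi-likelihood test of edgeR 4.0.16 in R 4.3.3, with filterByExpr, TMM scaling, the group alone in the design and Benjamini-Hochberg adjustment over 17439 genes. FPKM values were tested with limma 3.58.1 on log2(FPKM + 0.1) at a mean of at least 0.5 FPKM. Celf1 had no counts, so its test is the one on FPKM. DESeq2 1.42.0, limma voom, other scalings and filters, the replicate number as a block and leaving out each library were the alternatives, and summing both Celf1 entries was added after seeing the data. Gene coordinates are those of the deposited tables, and transcript sequences are from GENCODE M21. The fits were tested on simulated data. The members and lists were chosen with earlier results of these data known. Named genes were the 10 members, the 3 genes with the smallest p of each list of related genes, and the 2 nearest genes for 3 members; genes overlapping a member or on the scaffold of Celf1 were named after their values were seen. No same-group pair of libraries was a duplicate, with a chi-square of 13.8 to 99.6 times its degrees of freedom.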

Additional observations from a re-analysis of the deposited data

How the results depend on the processing

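No Elavl or Celf gene was called under any of the 18 settings run. Over all genes, edgeR called 11 without a filter on low counts (5 higher, 6 lower) and DESeq2 called 1. Celf6 kept its sign under all 17 alternatives (0.0026 to 0.080 with 1 library left out). The first entry of Celf1 had no counts and was run on FPKM alone, with another pseudocount, without the filter and with 1 library left out. It kept its sign in these (0.044 to 0.13 with 1 library left out), but not with its entries summed. The other 8 genes changed sign under at least 1 alternative, and the cause was not tested. With 1 library left out, the log2 fold change ranged from -0.088 to 0.024 for Elavl1, from -0.097 to 0.059 for Elavl2, from -0.093 to 0.11 for Elavl3, from -0.17 to 0.049 for Elavl4, from -0.13 to 0.13 for Celf2, from -0.10 to 0.0095 for Celf3, from -0.11 to 0.087 for Celf4 and from -0.10 to 0.12 for Celf5. The median over the 9 counted genes was -0.10 without control replicate 3 and 0.049 without control replicate 1. Elavl2 was at -0.0020 with limma voom. With library totals Celf2 was at 0.00064 and Celf4 at 0.0023. On log2 FPKM Celf4 was at 0.032 with a pseudocount of 0.1, filtered or not, and 0.032 with a pseudocount of 1. Celf1 was at -0.39 with its 2 entries summed. The second Celf1 entry ranged from -0.78 without knockdown replicate 2 to -0.45 without knockdown replicate 1. Correlations across genes between same-numbered libraries were 0.32, 0.44 and 0.062 for numbers 1, 2 and 3, the last near 0. Each knockdown replicate correlated best with the control replicate of its own number. Control replicate 3 correlated slightly better with knockdown replicate 2 (0.081). Whether same-numbered libraries share a culture is not in the labels. With the replicate number as a block 0 genes were called, the median over the 9 genes was -0.0014 and Elavl2 was at -0.0025. The lowest count of the 9 genes was 1843 (Celf6 in control replicate 3), and the part of depth was not tested.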
